A study of Mus musculus with 6 samples.

Results

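The core autophagy genes were taken from the deposited table by name: the Atg, Ulk, Map1lc3, Gabarap and Wipi families together with Becn1, Rb1cc1, Pik3c3, Pik3r4, Uvrag, Ambra1, Tfeb, Tfe3 and Epg5. This gave 36 genes of the 11768 listed, and Ulk4 and Atg9b, whose names also match, were not analysed here. Total RNA was sequenced from quadriceps muscle of mice on normal chow. There were 3 libraries from mice with the genotype Control f/f and 3 from mDrp1HET mice, which the design describes as heterozygous for a muscle-specific knockout of Drp1 and whose mouse model is labelled Drp1-KD. Drp1, encoded by Dnm1l, is the GTPase that divides mitochondria. The labels give no age or sex, name no promoter driving recombination beyond the letters mck in the library titles, and do not say whether libraries are separate animals. The p-values therefore measure the spread between these libraries, which may be technical.

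Macroautophagy encloses cytoplasm, including damaged mitochondria, in a double membrane that then fuses with the lysosome. The ULK kinase complex starts the process, the class III phosphatidylinositol 3-kinase marks the membrane, ATG9 and ATG2 bring and transfer lipid, and a ubiquitin-like conjugation system attaches LC3 and GABARAP proteins to the growing membrane. In skeletal muscle this pathway clears mitochondria and protein during fasting and exercise, and the transcription factors TFEB and FoxO induce many of its genes.

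The table lists 1 library in both groups, as Control replicate 1 and as mDrp1HET replicate 3: the reads of the first were exactly 2 times those of the second in 11334 of 11768 genes (96.3%). Among the autophagy genes these columns differed by at most 6.03e-04 log2 units. It is called the shared library, and its level is given once below. The comparison of 3 against 3 columns is called the labelled comparison, and the one without the shared library, 2 Control against 2 mDrp1HET libraries, the 4-library comparison. Because the shared library cancels out of the difference, each labelled log2 fold change was about 0.67 of the 4-library one. The labelled fit also treats its columns as separate libraries, 1 in each group, which they are not. The standard errors and p-values of the labelled comparison therefore do not rest on independent libraries and are given as description only. Depth, as reads recovered from the table, was lowest for mDrp1HET replicate 2 (10394761) and highest for the shared library. The latter had 64728022 reads as Control replicate 1 and 32372360 as mDrp1HET replicate 3, so its own depth is not settled. Every autophagy gene had at least 23 reads in each library. Dnm1l itself measured 6.95 and 6.87 log2 CPM for Control replicates 2 and 3, at 7.30 and 6.73 in mDrp1HET replicates 1 and 2 and at 6.69 in the shared library, so its transcript did not separate the groups (4-library log2 fold change 0.11, 95% interval -0.40 to 0.62, limma adjusted p = 0.843). The fibre markers Ckm, Acta1, Myh4 and the other 9 listed were all measured. The 12 together summed to between 136494 and 188555 CPM.

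The promoters of 5 autophagy genes are shown because these genes lay at either end of the differences described below or, for Atg3, carry the motif most often tied to TFEB. Each window covers 250 bases before to 50 bases after a RefSeq start (GRCm38.p6), written 5′ to 3′ on the gene's strand. Capitals mark the E-box CACGTG, the core of the TFEB-binding CLEAR element. The Atg14 window is chr14:47568385-47568684 (minus strand), Atg5 is chr10:44268089-44268388 (plus strand), Atg3 is chr16:45158579-45158878 (plus strand), Atg9a is chr1:75191961-75192260 (minus strand) and Ulk1 is chr5:110810032-110810331 (minus strand).
Atg14: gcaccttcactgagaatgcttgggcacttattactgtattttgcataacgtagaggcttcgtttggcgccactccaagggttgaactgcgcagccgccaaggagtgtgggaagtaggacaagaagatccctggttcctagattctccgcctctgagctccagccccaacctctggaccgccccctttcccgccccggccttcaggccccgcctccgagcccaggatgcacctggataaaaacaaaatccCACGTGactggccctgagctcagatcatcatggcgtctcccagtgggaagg
Atg5: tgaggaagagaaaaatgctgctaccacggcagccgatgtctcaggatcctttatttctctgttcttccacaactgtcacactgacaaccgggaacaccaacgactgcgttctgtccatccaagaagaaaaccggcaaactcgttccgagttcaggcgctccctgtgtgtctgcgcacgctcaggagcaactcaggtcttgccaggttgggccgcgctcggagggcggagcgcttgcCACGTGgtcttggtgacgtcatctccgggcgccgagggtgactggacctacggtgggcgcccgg
Atg3: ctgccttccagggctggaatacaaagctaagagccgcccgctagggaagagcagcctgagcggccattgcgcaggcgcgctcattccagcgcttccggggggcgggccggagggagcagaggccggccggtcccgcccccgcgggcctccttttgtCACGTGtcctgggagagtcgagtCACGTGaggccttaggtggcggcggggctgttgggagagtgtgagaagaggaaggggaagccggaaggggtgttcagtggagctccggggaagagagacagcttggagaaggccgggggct
Atg9a: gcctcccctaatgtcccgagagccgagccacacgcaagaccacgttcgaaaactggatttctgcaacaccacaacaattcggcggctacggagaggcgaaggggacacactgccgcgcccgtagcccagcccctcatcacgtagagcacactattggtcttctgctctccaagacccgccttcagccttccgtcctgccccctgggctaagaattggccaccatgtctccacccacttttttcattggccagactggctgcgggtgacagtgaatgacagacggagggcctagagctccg
Ulk1: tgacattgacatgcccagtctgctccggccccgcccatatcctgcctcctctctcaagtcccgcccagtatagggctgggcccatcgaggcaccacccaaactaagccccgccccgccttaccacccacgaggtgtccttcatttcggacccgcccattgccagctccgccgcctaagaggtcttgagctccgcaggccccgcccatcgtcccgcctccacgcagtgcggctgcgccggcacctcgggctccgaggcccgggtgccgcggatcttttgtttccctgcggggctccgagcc

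The E-box was searched on both strands in the windows of the 29 autophagy genes that the RefSeq table covers. It was present in 4 of their 34 windows (11.8%), those of Atg14, Atg3, Atg5 and Atg7, against 10.003% of the 11707 windows of listed genes and 7.15% of all 32817 windows. In Atg14 it began 1 base before the start, in Atg5 at position -14, in Atg3 at -94 and -71 and in Atg7 at -132. The longer CLEAR core TCACGTGA, which contains the E-box, was found in Atg3 alone, against 1.94% of the windows of listed genes. The FoxO motif GTAAACA was found in 0 of the 34 windows, against 2.49% of the windows of listed genes. The share of E-box windows thus lay close to that of listed genes, and the 4-library log2 fold changes of its carriers ran from 0.20 (Atg3) and 0.21 (Atg7) to 0.57 (Atg14) and 0.73 (Atg5). The Atg9a and Ulk1 windows held none of these 3 motifs. Nor did the windows of Atg4c, Uvrag and Atg101, which had log2 fold changes of 0.69, 0.58 and 0.50. Whether a motif goes with the direction of a difference was not tested.

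No autophagy gene passed the threshold of 0.05 in either comparison with limma (Benjamini-Hochberg over all genes). In the labelled comparison 0 of 36 passed, where 0% of all genes did, and the lowest adjusted p was 0.753. Without the shared library 0 of 36 passed, where 0.187% of all genes did (0.144% higher and 0.0425% lower), and the lowest adjusted p was 0.170, for Rb1cc1. At an unadjusted p under 0.05 the 4-library comparison held 3 higher and 3 lower members, 16.7% of the 36, against 16.6% of all genes. By direction the background was 13.3% higher and 3.26% lower. These counts depended on single libraries: omitting Control replicate 3 gave 0 higher and 0 lower, and omitting Control replicate 2 gave 3 higher and 1 lower. When mDrp1HET replicate 1 was omitted they were 1 higher and 1 lower, and when mDrp1HET replicate 2 was, 5 higher and 4 lower. With voom on the recovered reads the same numbers were 0 past the threshold and 3 and 3 at an unadjusted p under 0.05. The labelled comparison had 1 such member, Rb1cc1, against 3.90% of all genes (3.04% higher and 0.858% lower). That count became 7 higher and 7 lower with array weights. It was 4 and 4 without mDrp1HET replicate 3, which leaves the shared library in Control alone, and 0 and 0 when any other column was left out. The percentages of all genes in this paragraph belong to the main fits. Those of the other settings are not given here, so the counts under them cannot be read as an excess over all genes.

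The middle of all 11768 differences was not at 0 but at 0.20 on the log2 scale in the 4-library comparison, and at 0.04 after median centring, so directions are also given relative to that median. The autophagy genes had a median of 0.10, which is 0.10 below it, and 14 of 36 lay above it, which divides all genes evenly by construction. The groups did not overlap in 20 of 36 members, 14 higher and 6 lower in mDrp1HET, against 49.9% of all genes (38.6% higher and 11.3% lower). Differences of more than 0.5 from the median of all genes were seen in 5 members (13.9%), against 21.8% of all genes, and in the labelled comparison in 3 members, against 8.35%. The 95% intervals of 22 members lay within 1 log2 unit of 0 on both sides, so a change of 2-fold was outside the interval for these genes, and it was inside on at least 1 side for the other 14.

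**Figure D1:**
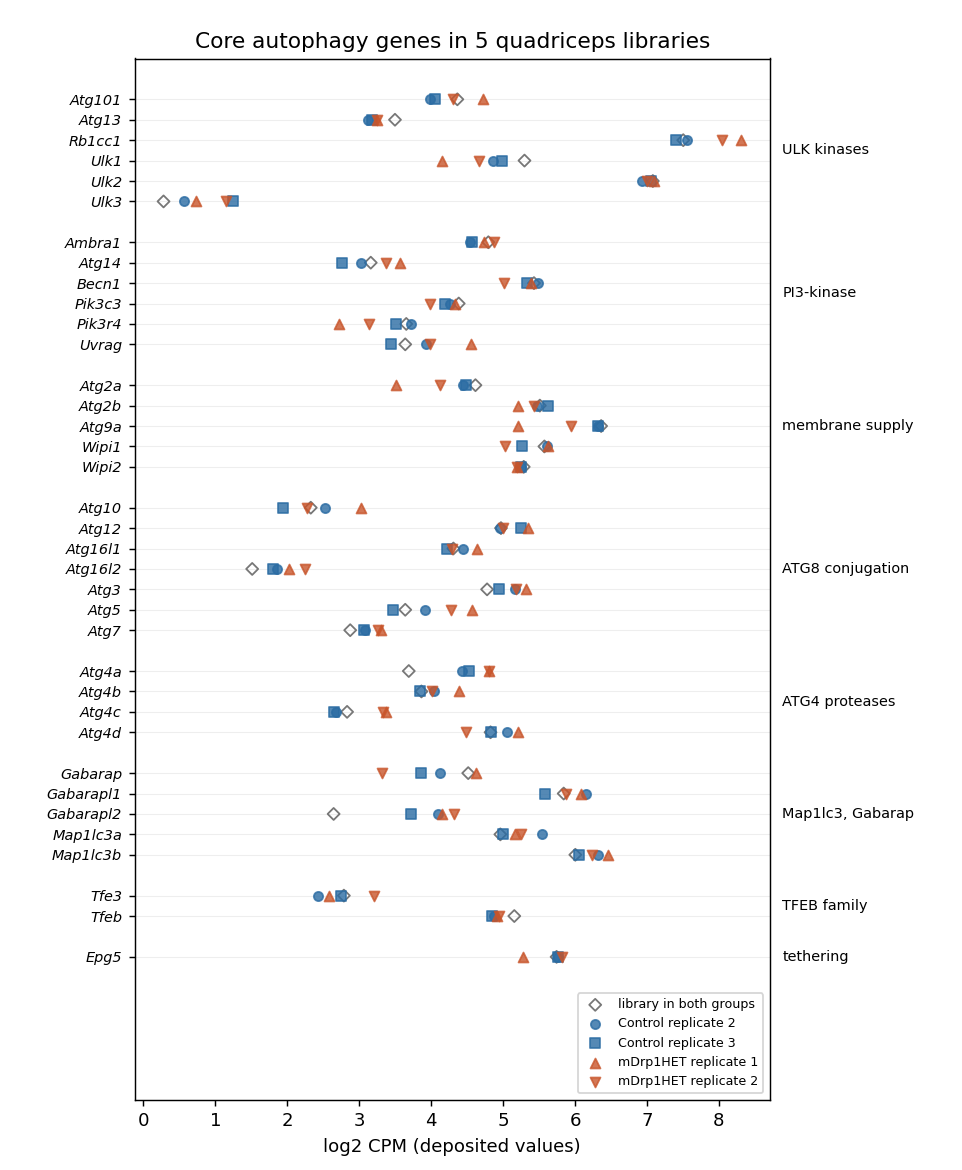
Deposited log2 CPM of the 36 autophagy genes (horizontal axis) in each of the 5 separate libraries, with genes grouped by role. Blue marks Control, orange marks mDrp1HET, and the open diamond is the library found in both groups. The orange symbols lie to the right of the blue ones for Rb1cc1, Atg5 and Atg4c and to the left for Atg9a, Atg2a and Pik3r4, while they overlap for Map1lc3a, Map1lc3b and Gabarapl1.

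Per kilobase of the longest coding transcript, the most abundant members were Gabarapl1 at 5.05 ± 0.22 log2 CPM per kb (SD, n = 5 libraries) and Map1lc3a at 5.03 ± 0.23, and Rb1cc1 at 4.83 ± 0.39, which did not differ beyond their spread. Next came Ulk2 at 4.51 ± 0.07 and Map1lc3b at 4.17 ± 0.19. The lowest were Tfe3 (0.09 ± 0.29), Ulk3 (-0.71 ± 0.40) and Atg16l2 (-0.80 ± 0.27). These levels depend on the transcript chosen, since the isoform present in each library is not given. They come from bulk muscle, in which fewer cells of a type and less RNA per cell cannot be told apart.

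Of the ULK kinases and their partners, 6 were measured, and 2 of them lay above the median of all genes. Rb1cc1 (Entrez 12421, chromosome 1, 6214634 to 6276375, RefSeq GRCm38.p6) encodes FIP200, the scaffold that holds the complex together. It measured 7.55 and 7.41 log2 CPM for Control replicates 2 and 3, at 8.30 and 8.04 in mDrp1HET replicates 1 and 2 and at 7.504 in the shared library. Both mDrp1HET libraries lay above all 3 others. The 95% interval of the 4-library log2 fold change, 0.69 with SE 0.21, ran from 0.24 to 1.14 (limma adjusted p = 0.170), and the labelled value was 0.46 with SE 0.20 (limma adjusted p = 0.753). Ulk1, the kinase that starts autophagosome formation, went the other way, with 4.86 and 4.99 in Control, 4.14 and 4.66 in mDrp1HET and 5.30 in the shared library. Its groups did not overlap, yet mDrp1HET replicate 1 was 0.52 log2 units below replicate 2, and the difference did not pass (4-library log2 fold change -0.52, 95% interval -1.08 to 0.04). Atg101, which stabilises Atg13 in the complex, was 3.98 and 4.05 in Control, 4.72 and 4.31 in mDrp1HET and 4.36 in the shared library (log2 fold change 0.50, 95% interval -0.06 to 1.06). The shared library thus lay inside the mDrp1HET range for Atg101 and above the Control range for Ulk1. The related kinase Ulk2 had the narrowest range of these 6, between 6.94 and 7.09 in all libraries, with a log2 fold change of 0.05 (95% interval -0.39 to 0.49). Atg13, the regulatory partner of the kinases, had 0.10 and Ulk3 0.04, the latter with only 23 reads in mDrp1HET replicate 2 and an interval of -0.92 to 1.001.

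The 6 genes of the class III phosphatidylinositol 3-kinase complexes split evenly, 3 above and 3 below the median of all genes. The kinase itself, Pik3c3 (VPS34), was at -0.06 on the log2 fold change scale (95% interval -0.62 to 0.49). Pik3r4 (VPS15), its regulatory subunit, stood at 3.71 and 3.51 log2 CPM in Control, at 2.72 and 3.13 in mDrp1HET and at 3.65 in the shared library. Both mDrp1HET libraries were below the other 3, by 0.68 between group means (log2 fold change -0.68 with SE 0.29 and a limma adjusted p of 0.274). Atg14 and Uvrag, which bind Becn1 in alternative complexes acting at the forming autophagosome and at endosomes, were both above the median. Atg14 was 3.03 and 2.77 in Control, 3.57 and 3.36 in mDrp1HET and 3.16 in the shared library (log2 fold change 0.57, 95% interval -0.06 to 1.19). Uvrag was 3.93 and 3.44 in Control, 4.55 and 3.99 in mDrp1HET and 3.64 in the shared library (log2 fold change 0.58, 95% interval -0.06 to 1.22). For Uvrag the gap between the groups, from 3.93 to 3.99, was small beside the spread within each. Becn1, the shared scaffold, was 5.48 and 5.34 in Control and 5.39 and 5.01 in mDrp1HET, with overlapping groups and a log2 fold change of -0.21 (95% interval -0.72 to 0.30). Ambra1, which links Becn1 and the ULK complex, had 0.25 (95% interval -0.26 to 0.75). Uvrag, Atg14 and Rb1cc1 each overlap an annotated antisense gene, and Becn1 overlaps Cntd1 on the opposite strand. Outside this group Atg2b, Atg4d, Atg9a, Atg16l2, Gabarapl1 and Map1lc3b also overlap a gene on the opposite strand. The libraries were stranded, but the counting is not given in the sources used here.

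All 5 measured genes placed by hand in the membrane supply and lipid transfer group lay below the median of all genes. Their median was 0.42 below it. Of 18 initiation and phosphoinositide accessory genes kept in a separate list, 8 lay above the median of all genes and 10 below. Those above included Vmp1 (log2 fold change 0.67) and the Wipi relative Wdr45b (0.62). Atg9a, the scramblase carried by vesicles that seed the membrane, stood at 6.32 in both Control libraries, at 5.21 and 5.94 in mDrp1HET and at 6.36 in the shared library. Both Control libraries and the shared library, whose group is not known, thus agreed within 0.04 log2 units, while mDrp1HET replicates 1 and 2 had differences of -1.11 and -0.38 from the Control mean. The 4-library difference, -0.75 on the log2 scale with SE 0.26, had an interval of -1.31 to -0.18 and a limma adjusted p of 0.213. Atg2a, a lipid-transfer protein that bridges membranes, showed a like order, with 4.45 and 4.49 in Control, 3.51 and 4.12 in mDrp1HET and 4.62 in the shared library (log2 fold change -0.65, SE 0.27, limma adjusted p = 0.273). Its paralogue Atg2b was 5.47 and 5.62 in Control and 5.21 and 5.43 in mDrp1HET, and the interval of its difference included 0 (log2 fold change -0.22, 95% interval -0.71 to 0.27). The phosphoinositide-binding proteins Wipi1 and Wipi2 had log2 fold changes of -0.11 and -0.05. In this group 0 of 5 passed, 2 were lower at an unadjusted p under 0.05, against 3.26% of all genes, and 4 of 5 were lower with groups that did not overlap, against 11.3% of all genes. Leaving out mDrp1HET replicate 1 left Atg9a at -0.38 and Atg2a at -0.35, and leaving out mDrp1HET replicate 2 brought Atg9a to -1.11 and Rb1cc1 to 0.82. Each of these fits holds a lone mDrp1HET library, which has no spread of its own. Under the alternatives that kept the 4 libraries the lowest limma adjusted p was 0.182 for Atg9a and 0.147 for Rb1cc1. Atg9a shares exonic sequence on the same strand with the processed transcript Gm29253.

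**Figure D2:**
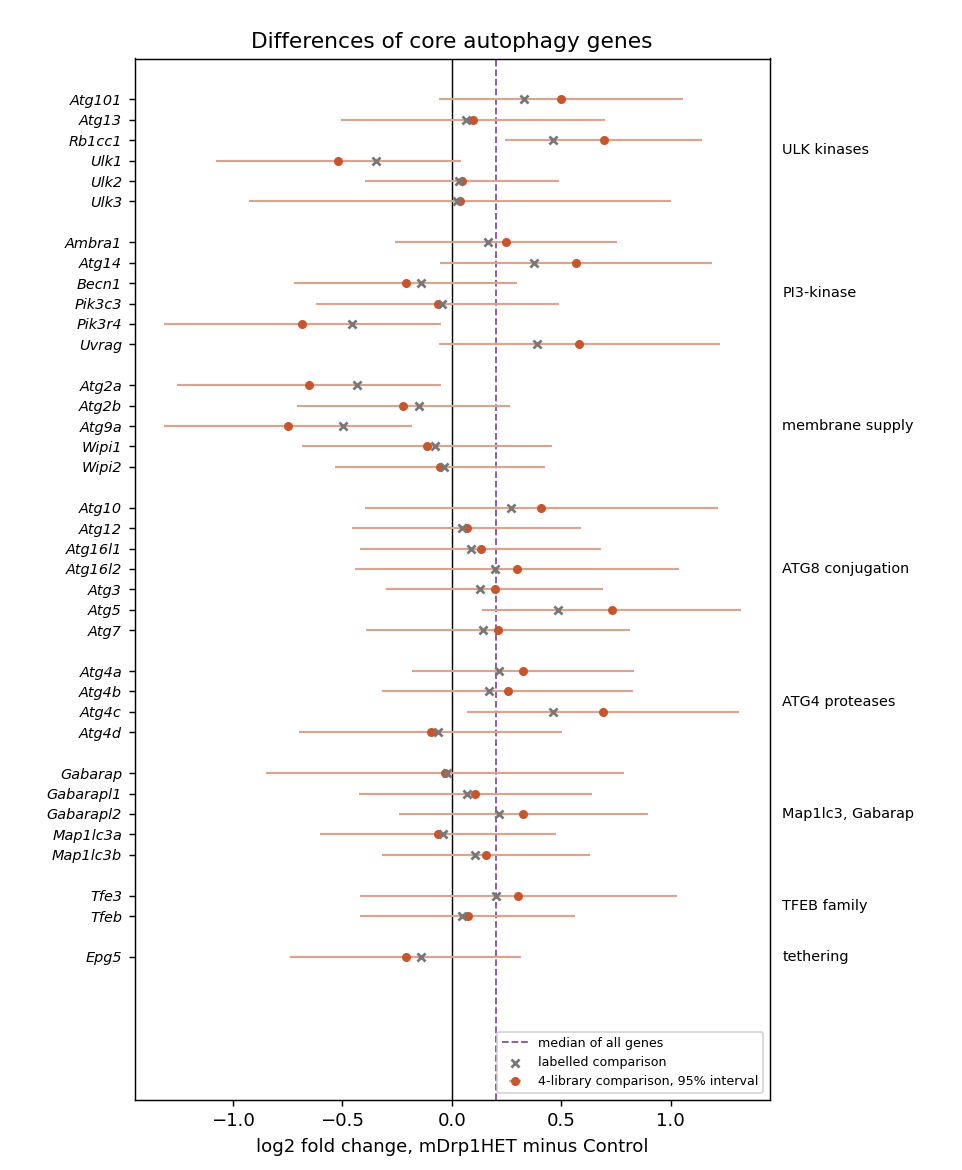
Log2 fold change of mDrp1HET against Control for each of the 36 genes, grouped by role. Orange dots and bars give the 4-library value with its 95% interval from limma, grey crosses the labelled value, and the dashed line the median of all genes at 0.20. The intervals of Rb1cc1, Atg5, Atg4c, Atg9a, Atg2a and Pik3r4 leave out 0 before adjustment, and none of the 36 passed after it.

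The conjugation system joins Atg12 to Atg5 and LC3 or GABARAP to lipid, and its 7 genes centred 0.01 above the median of all genes. Atg5, the acceptor of Atg12, stood at 3.92 and 3.47 log2 CPM in Control, at 4.57 and 4.28 in mDrp1HET and at 3.64 in the shared library. The groups did not overlap, and the 4-library difference of 0.73 on the log2 scale, with SE 0.27 and interval 0.14 to 1.32, was the highest of the 36 (limma adjusted p = 0.234). Its partners were nearer the median of all genes. Atg7, the E1-like activating enzyme, had 0.21, and Atg3 and Atg10, the E2-like enzymes for LC3 and for Atg12, had 0.20 and 0.41. Atg12 had 0.07, Atg16l1, which directs the conjugate to the membrane, 0.13, and its less abundant paralogue Atg16l2 0.30. All 7 log2 fold changes lay above 0, where 69.6% of all genes did, and with median centring 2 of the 7 lay below 0.

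The ATG4 proteases trim LC3 and GABARAP before conjugation and free them from lipid, and 3 of the 4 lay above the median of all genes. Atg4c was 2.68 and 2.64 in Control, 3.38 and 3.32 in mDrp1HET and 2.83 in the shared library. The groups were tight and apart, and differed by 0.69 on the log2 scale with SE 0.28 (limma adjusted p = 0.264), and the authors' deposited table gave Atg4c the lowest p-value of the 36, 0.0660. Atg4a and Atg4b, the most active members, had 0.33 and 0.26, and Atg4d -0.10. In Atg4a the shared library (3.69) lay 0.74 below the lowest of the other 4 (4.43 to 4.80). A pseudogene, Atg4a-ps, is annotated, so reads of Atg4a may have been split in any of the libraries, which was not tested.

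The 5 LC3 and GABARAP genes encode the proteins that coat the membrane and bind cargo receptors. Their log2 fold changes were small. Map1lc3b was 6.32 and 6.06 log2 CPM in Control, 6.46 and 6.24 in mDrp1HET and 6.003 in the shared library (log2 fold change 0.16, 95% interval -0.32 to 0.63). Map1lc3a was 5.54 and 4.997 in Control, 5.16 and 5.25 in mDrp1HET and 4.96 in the shared library (log2 fold change -0.06, 95% interval -0.60 to 0.48). Gabarapl1, a FoxO target in muscle, was 6.16 and 5.59 in Control, 6.08 and 5.88 in mDrp1HET and 5.84 in the shared library (log2 fold change 0.11, 95% interval -0.43 to 0.64). In these 3 genes the groups overlapped. Gabarap was 4.13 and 3.86 in Control, 4.62 and 3.31 in mDrp1HET and 4.52 in the shared library, so the mDrp1HET libraries lay on either side of Control (log2 fold change -0.03, 95% interval -0.85 to 0.79). Gabarapl2 was 4.09 and 3.72 in Control and 4.15 and 4.32 in mDrp1HET (log2 fold change 0.33, 95% interval -0.24 to 0.90). The shared library, at 2.64, was 1.07 below the lowest of these, the widest such gap among the 36. The signs of Map1lc3b and Gabarapl1 turned with median centring (-0.0093 and -0.0581).

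The transcription factors Tfeb and Tfe3 drive lysosomal and autophagy genes. Tfeb was between 4.84 and 4.94 log2 CPM in the 4 libraries and 5.16 in the shared one, with a log2 fold change of 0.07 (95% interval -0.42 to 0.57). Tfe3 was 2.43 and 2.75 in Control and 2.58 and 3.21 in mDrp1HET, a log2 fold change of 0.30 with overlapping groups. Epg5, which tethers autophagosomes to late endosomes and lysosomes, was 5.76 in both Control libraries and 5.28 and 5.82 in mDrp1HET, a log2 fold change of -0.21.

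The libraries were not alike in other respects that move with these values. The mDrp1HET libraries were the shallower ones, with 15782298 and 10394761 reads against 28664508 and 25019293 in Control. The noncoding RNA Rn7sk took 1.39% and 1.90% of their reads, against 0.584% and 0.419% in Control. Depth and the share of this RNA went with the group in these libraries, so their part cannot be told apart from that of genotype. The part of depth, of this RNA and of GC content in the values of the autophagy genes was not tested. mDrp1HET replicate 1 lay farther from the Control mean than replicate 2 in 23 of 36 members, and in 63.5% of all genes. In 28 of 36 members the shared library was closer to Control than to mDrp1HET (77.8%), against 73.2% of all genes, and it was outside the range of the other 4 libraries in 15 (41.7%), against 32.7% of all genes. The 4-library log2 fold change also fell with the GC content of the transcript. The Spearman correlation was -0.46 across the 36 members and -0.39 across 11211 genes, which are points from the same 4 libraries and not independent replicates. The 18 members with the higher GC content had a median log2 fold change of 0.0035 and the other 18 one of 0.28. After each library's trend on GC content was removed, Rb1cc1 was at 0.23, Atg5 at 0.44, Atg4c at 0.37, Atg14 at 0.40 and Uvrag at 0.42, while Atg101 was at 0.53. On the lower side Atg9a was at -0.77, Pik3r4 at -0.78, Atg2a at -0.57 and Ulk1 at -0.49. The removal also took out each library's shift over all genes. The deposited values to set beside these are therefore those relative to the median of all genes. On the lower side they were -0.95 (Atg9a), -0.89 (Pik3r4), -0.85 (Atg2a) and -0.72 (Ulk1). On the higher side they were 0.49 (Rb1cc1), 0.53 (Atg5), 0.49 (Atg4c), 0.37 (Atg14), 0.38 (Uvrag) and 0.30 (Atg101). All 5 membrane supply genes lay below the median of all genes in each of the 14 alternatives, which reuse the same libraries. With GC removal their group median lay 0.39 below it. The groups were assigned by hand. Of the 18 initiation and phosphoinositide accessory genes listed apart, 8 lay above the median of all genes and 10 below. Among those above were Vmp1 and the Wipi relative Wdr45b, with log2 fold changes of 0.67 and 0.62.

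**Figure D3:**
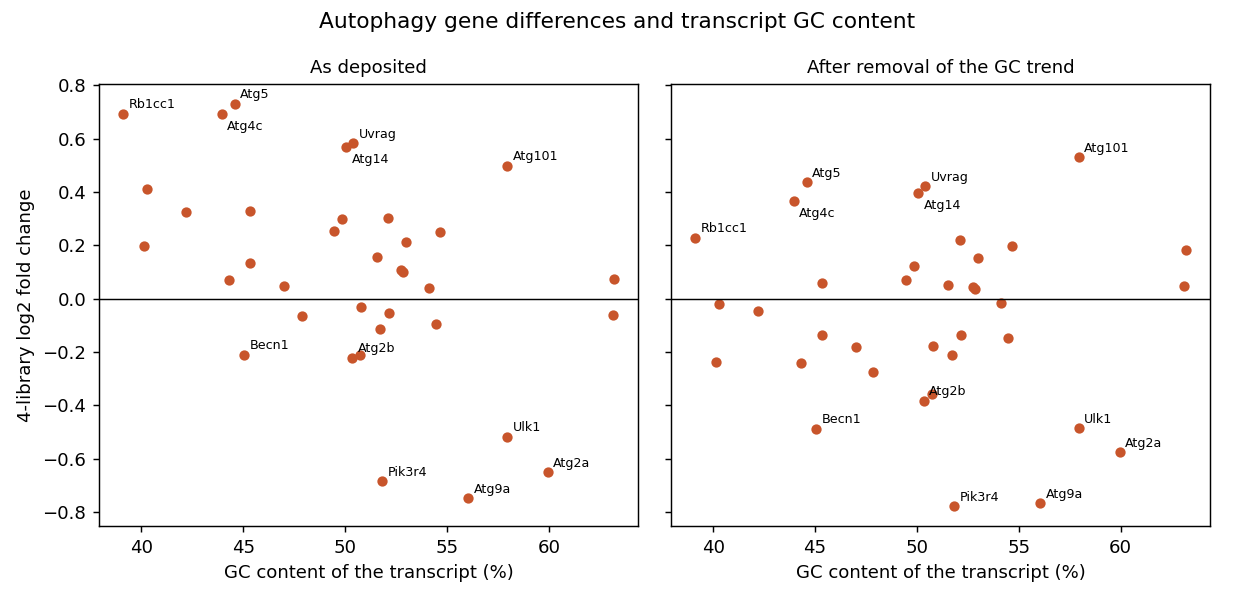
The 4-library log2 fold change of the 36 autophagy genes against the GC content of their longest coding transcript in percent, before (left) and after (right) removal of each library's GC trend over all genes. Labels mark the 6 members with the smallest p in each direction. Rb1cc1, at 39.1% GC, moved from 0.69 to 0.23, and Atg9a, at 56.0% GC, stood at -0.75 and -0.77. The removal also took out the shift of all genes. Relative to the median of all genes the deposited values were 0.49 (Rb1cc1) and -0.95 (Atg9a).

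**Figure D4:**
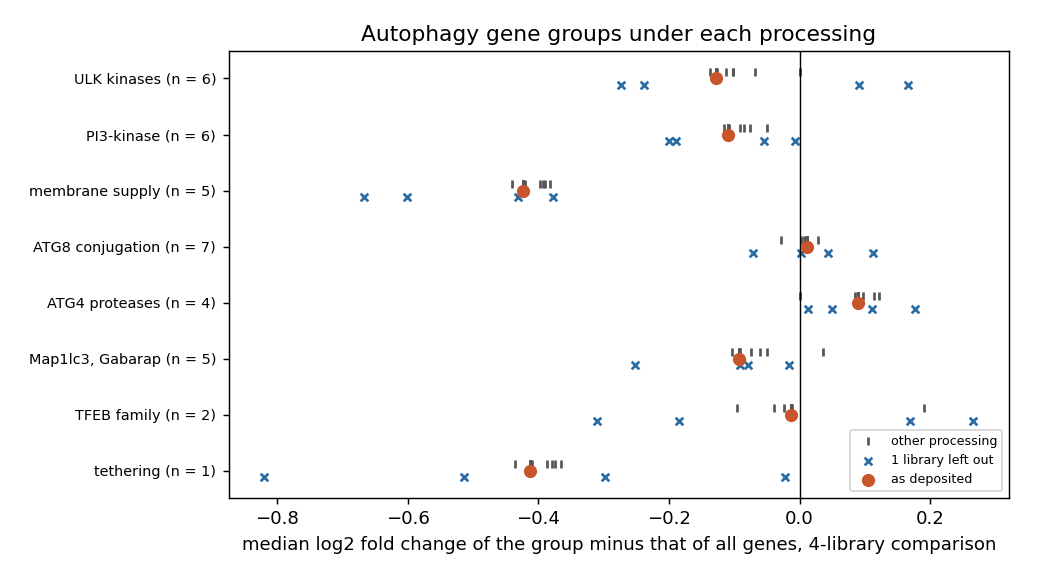
Median 4-library log2 fold change of each role group minus that of all genes, as deposited (orange dots), under other processing (grey bars) and with 1 library left out (blue crosses); n is the number of genes. The membrane supply group lay between -0.67 and -0.38 under every alternative, while the ULK, conjugation, LC3 and TFEB groups lay on both sides of 0.

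Genes around the core pathway were counted in 5 further lists, and with limma 0 passed in either comparison. For each count below, 13.3% of all genes were higher and 3.26% lower at an unadjusted p under 0.05 in the 4-library comparison. Of 18 initiation and phosphoinositide accessory genes, 2 were higher and 0 lower at an unadjusted p under 0.05 in the 4-library comparison, with a list median 0.09 below that of all genes. They were Vmp1, an ER protein needed for the forming membrane (log2 fold change 0.67, SE 0.22), and Wdr45b, a Wipi relative (0.62, SE 0.26). Mtm1, a phosphoinositide phosphatase, was next at 0.50. Of 12 cargo receptors 1 was higher and 0 lower, with a median 0.11 below all genes. It was Retreg1, the ER-phagy receptor, at 8.27 and 7.61 log2 CPM in Control, 9.48 and 8.62 in mDrp1HET and 8.73 in the shared library (log2 fold change 1.11, SE 0.30, limma adjusted p = 0.141). Stbd1, which binds glycogen, and Bag3, a co-chaperone of selective autophagy, had -0.56 and -0.43. Of 16 genes of fusion with the lysosome 2 were higher and 0 lower, the membrane protein Lamp2 (0.59, SE 0.21) and the SNARE Vamp8 (0.58, SE 0.26), followed by the SNARE Vti1b (0.44), and the list median was 0.07 below all genes.

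Of 20 upstream kinases and nutrient sensors 1 was higher and 3 lower at an unadjusted p under 0.05, against 13.3% and 3.26% of all genes, with a median 0.13 below all genes. Tsc2, which restrains mTORC1, was 5.64 and 5.69 log2 CPM in Control, 4.57 and 4.97 in mDrp1HET and 5.77 in the shared library (log2 fold change -0.90, SE 0.23, limma adjusted p = 0.131). Stk11 (LKB1, the kinase that activates AMPK) had -0.57 (SE 0.23) and Fnip1, a folliculin partner, 0.52 (SE 0.20). Of 9 transcription regulators 1 was higher and 0 lower, and the median was 0.08 above all genes. Foxo1, a FoxO factor active in fasting muscle, was 3.36 and 3.42 in Control, 4.59 and 4.84 in mDrp1HET and 4.62 in the shared library, which lay inside the mDrp1HET range (log2 fold change 1.32, SE 0.25, limma adjusted p = 0.0675). Over its 14 alternatives that adjusted p ran from 0.0117 without mDrp1HET replicate 1 to 0.194 with quantile normalization, and it was also under 0.05 with voom (0.0483). Zkscan3, described as a repressor of autophagy genes, had 0.54, and Mitf, a relative of Tfeb, 0.35.

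Markers of other cells of the muscle piece also differed between the libraries. Each marker counted here had reads in every library. Of 10 macrophage markers 9 lay above the median of all genes, and they summed to 324 and 198 CPM in Control, 419 and 374 in mDrp1HET and 251 in the shared library. Of 12 fibro-adipogenic progenitor markers 11 lay above it, with sums of 3250 and 2196, 3822 and 4162, and 2514 in the same order. All 7 adipocyte markers lay above it, with 397 and 184, 614 and 346, and 570. Erythroid markers lay above it in 2 of 3 (103 and 57.3 CPM in Control, 183 and 92.8 in mDrp1HET) and Schwann cell markers in 3 of 5 (53.5 and 27.4, and 53.8 and 46.4). Those of endothelium were below it in 8 of 10 (437 and 295 CPM summed in Control, 390 and 280 in mDrp1HET) and those of smooth muscle in 6 of 7 (317 and 160, and 254 and 156). At an unadjusted p under 0.05 in the 4-library comparison, 4 macrophage, 7 progenitor, 3 adipocyte and 2 erythroid markers were higher and 0 lower. Endothelium and smooth muscle each had 0 higher and 1 lower, and Schwann cells had 0 in either direction. Of all genes 13.3% were higher and 3.26% lower. Fibre markers lay below the median of all genes in 7 of 12 and above it in 5, with 2 higher and 3 lower at an unadjusted p under 0.05. The 3 lower were the fast myosins Myh2, Myh1 and Myh4 (-0.996, -1.04 and -0.89), and the 2 higher were Pvalb, a calcium buffer of fast fibres (0.63), and Mylpf, a fast myosin light chain (0.56). The slow-fibre genes Tnnt1 and Myh7, named after their values were seen, had the widest differences (2.58 with SE 1.26 and 2.32 with SE 1.21) and did not pass. Myh7 stood at 3.56 and 1.31 log2 CPM in Control, 7.34 and 2.18 in mDrp1HET and 1.85 in the shared library, so mDrp1HET replicate 1 alone was far above the rest. All 12 fibre markers together summed to 173799 and 176599 CPM in Control and 141715 and 136494 in mDrp1HET. Myh4, the most abundant, weighs most in these sums, at 16.27 and 16.44 log2 CPM in Control and 15.31 and 15.62 in mDrp1HET. The sums therefore do not show a fall across the 12 markers. The part of these cells in the values of the autophagy genes was not tested.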

How the data were processed

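Ribosomal RNA was depleted and stranded total RNA libraries were made from quadriceps RNA with an integrity number above 7, per the labels. Libraries were sequenced in 2 pools, which the labels do not assign. The authors deposited normalized log2 CPM values, 1 column for each library, beside their own p-value. Per the submitters' processing notes, FastQC and DESeq2 1.30.0 were used and the build was GRCm38. The aligner and counter are not given in the sources used here. Whole reads were recovered from constant steps in each column (100% of values, tolerance 0.01 reads). Of the symbols, 17 turned into dates were restored by Entrez number, and 68 rows had none. The fit over 11768 genes used limma 3.58.1 (R 4.3.3), its variance prior following intensity, two-sided, with Benjamini-Hochberg adjustment over all genes. Self-tests used simulated data. Transcript lengths and GC content came from GENCODE transcripts linked by Entrez number (95.3% of genes). Members described in full were the LC3 and GABARAP genes and the 6 with the smallest 4-library p on each side of the median of all genes; other lists gave up to 3 genes. Alternatives were other scalings, added constants of 1 and 0.1 CPM, filters keeping a mean of at least 1 or 3 log2 CPM, other variance models, voom, GC removal (loess, span 0.3) and leaving out libraries. The members and lists were chosen with earlier results of these data known.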

Additional observations from a re-analysis of the deposited data

How the results depend on the processing

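In the 4-library comparison 0 autophagy genes passed under each alternative that kept the 4 libraries, and leaving out 1 library gave 0 to 2, the 2 being Rb1cc1 and Atg9a without mDrp1HET replicate 2, where the lone mDrp1HET library is assumed to vary like the others. In the labelled comparison 0 passed under every alternative. All genes past the threshold, 22 in the 4-library comparison, numbered 0 with median centring, 0 without the intensity trend, 0 with the GC trend removed, 1 with quantile normalization, 51 with voom, and 77 to 325 with 1 library left out. In the labelled comparison they numbered 0, but 2 with the shared library in Control alone, 2 with it in mDrp1HET alone, and 0 to 2 with 1 column left out. The median of the members minus that of all genes was -0.10 in the main 4-library fit. Under its alternatives it lay between -0.14 and 0.0083, so it took both signs.

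Of the 12 members described at either end, each kept its sign in both comparisons under all alternatives. They were chosen by small 4-library p in these same libraries, and the labelled comparison holds the same difference. The kept signs therefore follow in part from that choice and are no separate support. Over all alternatives 18 of 36 members took both signs in the 4-library comparison, and 18 in the labelled one. They included Atg3, Atg12, Ulk2, Atg16l1, Atg4d, Epg5 and Tfeb in both, and the values of the LC3 and GABARAP genes and Dnm1l follow. With median centring the labelled values were -0.0062 (Map1lc3b), -0.0388 (Gabarapl1) and -0.0389 (Dnm1l), and the 4-library values -0.0093, -0.0581 and -0.0583. With quantile normalization Gabarapl1 and Dnm1l were -0.0251 and -0.0115 (labelled) and -0.0371 and -0.0136 (4-library). With array weights the labelled Map1lc3a was 0.13 and Dnm1l -0.0142. With voom Gabarap was 0.0445 and 0.0326. With the GC trend removed Map1lc3a was 0.0305 and 0.0457, and Dnm1l -0.20 and -0.30. With the shared library in Control alone Map1lc3a was 0.0408, and with it in mDrp1HET alone Gabarap was 0.15, Gabarapl2 -0.20 and Dnm1l -0.0011. With 1 column left out the labelled ranges were -0.14 to 0.15 (Map1lc3a), -0.0077 to 0.22 (Map1lc3b), -0.26 to 0.40 (Gabarap), -0.0652 to 0.22 (Gabarapl1), -0.20 to 0.75 (Gabarapl2) and -0.13 to 0.18 (Dnm1l). The 4-library ranges were -0.34 to 0.21 (Map1lc3a), -0.68 to 0.62 (Gabarap), -0.18 to 0.39 (Gabarapl1) and -0.18 to 0.40 (Dnm1l). The causes were not tested. No paired analysis was possible because the labels give the libraries no shared replicate numbers. Depth limits the least abundant members, such as Ulk3 with 23 reads in mDrp1HET replicate 2.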
